A study of Homo sapiens with 18 samples.

Results

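Adhesion of the blasts of BCP-ALL, the acute lymphoblastic leukemia of B-cell precursors, runs largely through integrins and the intercellular adhesion molecules (ICAMs), and the transcripts of 10 such genes were followed here in leukemia cells treated with *SOX11* siRNA. The genes were taken by name, with earlier results of these data known: the integrin chains *ITGA4*, *ITGA5*, *ITGA6*, *ITGAL*, *ITGB1*, *ITGB2* and *ITGB7*, and the ligands *ICAM1*, *ICAM2* and *ICAM3*. All 10 were found among the 26941 genes counted. RNA was sequenced from 18 samples of 3 established BCP-ALL lines. REH carries the ETV6-RUNX1 fusion, and 697 and RCH-ACV belong to another subtype. In each line 3 samples had received *SOX11* siRNA and 3 a non-specific control siRNA, each at 300 nM by nucleofection, and RNA was collected 48 h later. All samples, controls included, thus went through nucleofection, and no untreated cells were compared. The samples are cultured cell lines, so the stroma and endothelium that present ligands in bone marrow are not part of them.

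An integrin is a pair of 1 α and 1 β chain that spans the membrane, binds a ligand outside the cell and is linked to actin inside it. The α4 chain pairs with β1 or β7 and binds VCAM1, fibronectin or MAdCAM1. The α5 chain pairs with β1 as a fibronectin receptor, and the α6 chain pairs with β1 or β4 as a laminin receptor. The αL chain pairs with β2 to form LFA-1, the leukocyte receptor for ICAM1, ICAM2 and ICAM3. In BCP-ALL these molecules are best known for holding blasts in the bone marrow niche and for the infiltration of other organs.

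Because the siRNA targets a SOX transcription factor, the RefSeq promoter windows (GRCh38.p14, 250 bases before to 50 after each start site) were searched for short letters that SOX, RUNX and ETS factors are known to bind. Windows were at hand for 7 of the 10 genes (11 windows, since some genes have several start sites). *ITGAL*, *ITGB2* and *ICAM2* had none. The letters were ACAAAG and ACAATG (SOX), TGTGGT (RUNX) and CCGGAAG (ETS), on both strands. The matches are shown in capitals within 30 bases on the strand of the gene, the *ITGB7* match at chr12:53207232-53207261 (minus strand) and those of *ITGA6* at chr2:172427337-172427366 and chr2:172427415-172427444 (plus strand).
ITGB7 SOX: ccagatcagtacACAAAGgctgctgctgcc
ITGA6 RUNX: tgctactcggcaACCACAattctgtccaca
ITGA6 ETS: cccacgtcgtggCTTCCGGgcaggtaccgg
The *ITGB7* match began 2 bases after the start site, and the *ITGA6* matches were read as the reverse complement of the letters. These letters were also found in 16.1% (ACAAAG), 13.1% (TGTGGT) and 10.3% (CCGGAAG) of all 35116 promoter windows, and ACAATG in 10.8%. The windows of *ITGA4*, *ITGA5*, *ITGB1*, *ICAM1* and *ICAM3* held none of them. A match of this kind is a description of the sequence and not a bound site.

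The total count per sample lay between 7039594 and 16592492, so that 3 counts, taken as the smallest number that shows a gene, stood for 0.181 to 0.426 CPM (counts scaled to a common library size). *SOX11* fell in each line, by 0.83 in REH, by 0.91 in 697 and by 0.67 in RCH-ACV on the log2 scale (adjusted p = 1.41e-08, 2.33e-04 and 2.51e-06, edgeR's quasi-likelihood test), without overlap between the groups. The summed level of 10 B-cell precursor markers lay between 3926 and 5946 CPM in all samples, and that of 6 T-cell markers between 0 and 1.15 CPM. The summed level of 6 myeloid markers, with *ELANE* at 0 in all groups, lay between 2.35 and 31.5 CPM. The 6 stromal markers summed to between 14.7 and 192 CPM, with *COL3A1*, *DCN*, *LUM* and *PDGFRA* at 0. In REH and 697 *COL1A2* was at 0 as well, so the sum there was *PDGFRB* alone. It stood at 14.7 to 18.8 CPM in REH and 80.5 to 108 CPM in 697. In RCH-ACV the sum was 173 to 192 CPM, and 1 of the 6 markers had a mean of at least 1 CPM. Some markers moved with the siRNA. Of the B-cell markers, *MME* rose by 0.36, *CD79A* rose by 0.13 and *EBF1* fell by 0.13 on the log2 scale in REH. In 697 *DNTT* fell by 0.27 and *EBF1* fell by 0.34, and in RCH-ACV *MME* rose by 0.56, *CD79A* by 0.46 and *CD22* by 0.20, while *DNTT* fell by 0.37. The myeloid marker *MPO* fell by 0.78 in REH. The summed B-cell markers stood at 5117 to 5433 CPM in the 697 controls and at 4474 to 4666 CPM with *SOX11* siRNA, without overlap. In REH they stood at 5490 to 5642 CPM in the controls and 5894 to 5946 CPM with the siRNA, also without overlap, and in RCH-ACV the groups overlapped. The part of these shifts in the adhesion gene values below was not tested. Within their groups 3 libraries stood apart, replicate 1 of the 697 controls and replicates 3 of the *SOX11* siRNA samples of 697 and RCH-ACV. The chi-square per degree of freedom over genes was 3.47 to 5.18 for the pairs that hold one of them and 1.3 to 2.27 for the other replicate pairs.

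In the control samples the most abundant of the 10 transcripts, per kilobase of transcript, were *ICAM2*, *ITGA4*, *ITGA5* and *ITGB1*, and *ITGAL* was the lowest in every line. *ICAM2*, the ICAM of resting leukocytes and endothelium, stood first in REH at 63.8 ± 2.68 CPM per kb (SD, n = 3) and in 697 at 91.3 ± 2.72 CPM per kb. *ITGA4* stood first in RCH-ACV at 127 ± 0.412 CPM per kb, where *ICAM2* followed at 52.6 ± 2.62 CPM per kb. The rank of *ICAM2* is uncertain, because an overlapping gene on the other strand, *PRR29*, held 65.3% to 87.5% as many counts in a sample and the reads of the pair cannot be told apart. The RCH-ACV cells thus carried more transcripts of the α4 chain than of any other member. In REH the order below *ICAM2* was *ITGA4* (43.3 ± 0.373 CPM per kb), *ITGB1* (16.5 ± 0.119), *ITGA5* (8.93 ± 0.515), *ICAM3* (7.36 ± 0.368), *ICAM1* (2.56 ± 0.186), *ITGB2* (2.06 ± 0.467), *ITGB7* (0.918 ± 0.157) and *ITGA6* (0.444 ± 0.0433). In 697 it was *ITGA5* (65.9 ± 3.69 CPM per kb), *ITGA4* (62.2 ± 3.92), *ITGB1* (39.8 ± 1.79), *ITGA6* (8.46 ± 0.403), *ITGB2* (8.34 ± 0.398), *ITGB7* (5.33 ± 0.456), *ICAM3* (1.68 ± 0.384) and *ICAM1* (0.564 ± 0.255). In RCH-ACV *ITGB1* (44.6 ± 0.903 CPM per kb) and *ITGA5* (39.9 ± 1.27) came next, then *ITGB7* (12.8 ± 0.622), *ITGB2* (7.95 ± 0.126), *ICAM3* (4.31 ± 0.402), *ITGA6* (3.25 ± 0.383) and *ICAM1* (2.30 ± 0.293). Only in 697 did neighbours in these orders overlap in their samples, *ITGA5* with *ITGA4* and *ITGA6* with *ITGB2*.

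**Figure D1:**
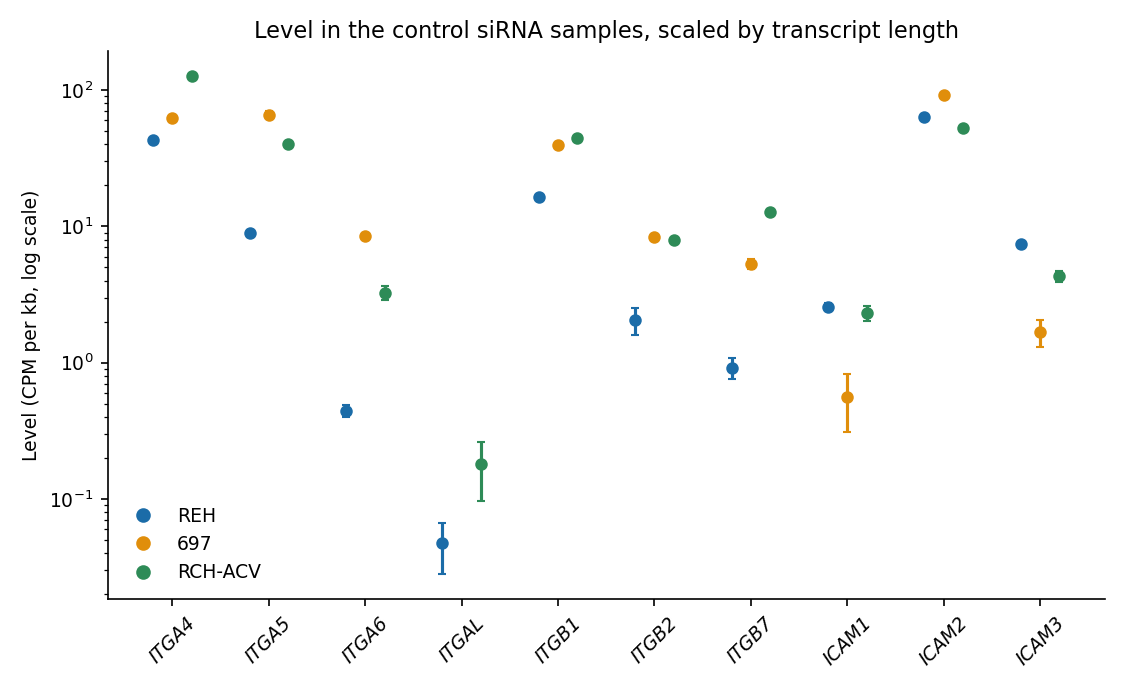
Mean level of the 10 genes in the control siRNA samples of each line, in CPM per kb of transcript on a log axis, with bars of 1 SD (n = 3). *ICAM2*, *ITGA4*, *ITGA5* and *ITGB1* sit highest and *ITGAL* lowest. The level of *ICAM2* may hold reads of the overlapping *PRR29*, and *ITGAL* in 697 (0 counts) is not drawn.

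The listed α and β chains were unequal in transcript number. The levels of *ITGA4*, *ITGA5* and *ITGA6* summed to 52.7 ± 0.695 CPM per kb in REH, 137 ± 7.32 in 697 and 169.8 ± 1.86 in RCH-ACV control samples (SD, n = 3). *ITGB1* and *ITGB7*, their β partners on this list, summed to 17.4 ± 0.0528, 45.1 ± 1.39 and 57.4 ± 0.374 CPM per kb. The ratio of the sums lay between 2.90 and 3.10 in the 9 control samples. It lay between 2.74 and 3.38 in the 9 samples with *SOX11* siRNA. In REH the ratio was 2.98 to 3.04 in the controls and 2.74 to 2.87 with the siRNA, without overlap. The ranges overlapped in 697 (2.90 to 3.10 and 3.02 to 3.24) and in RCH-ACV (2.92 to 3.02 and 2.95 to 3.38). Both control sums of these listed chains were lowest in REH and highest in RCH-ACV. The β1 partners *ITGA8* and *ITGAV* are not in the α sum, and neither is the α chain *ITGAE*. Control means of *ITGAE* were 22.7 CPM in REH, 24.0 CPM in 697 and 22.4 CPM in RCH-ACV. The control mean of *ITGA8* was 515 CPM in 697, 90.2 CPM in RCH-ACV and 0.288 CPM in REH, so the ratio holds for the listed chains alone.

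The 3 lines differed widely in these genes without any *SOX11* siRNA. Of the 9 members tested, 9 differed between the REH and 697 controls, 8 between the controls of REH and RCH-ACV, and 8 between those of 697 and RCH-ACV (adjusted p under 0.05, edgeR's quasi-likelihood test over the 9 control samples). Most genes did: 76.3%, 73.9% and 64.2% of the 13686 genes tested passed in these comparisons, so such shares are common among genes. REH, the ETV6-RUNX1 line, held less of 6 integrin chains than either of the other lines, where 37% of all genes were lower in REH than in 697 and 37.7% lower than in RCH-ACV. *ITGA6*, the laminin receptor chain at chr2:173292082-173371187 (hg19), was lower in REH, with a log2 difference of -4.28 ± 0.13 from 697 and -2.90 ± 0.15 from RCH-ACV (SE). Its control levels were 2.58 ± 0.252 CPM in REH, 49.2 ± 2.34 in 697 and 18.9 ± 2.23 in RCH-ACV. *ITGB7*, a mucosal homing chain at chr12:53585107-53601066, had a log2 difference of -3.77 ± 0.13 from RCH-ACV, with control levels of 2.58 ± 0.440 CPM in REH, 15.0 ± 1.28 in 697 and 35.9 ± 1.75 in RCH-ACV. *ITGA5*, the fibronectin receptor chain at chr12:54789045-54813050, had log2 differences of -2.89 ± 0.06 from 697 and -2.17 ± 0.06 from RCH-ACV. In the same order they were -2.03 ± 0.13 and -1.96 ± 0.13 for *ITGB2*, -1.28 ± 0.05 and -1.45 ± 0.05 for *ITGB1*, and -0.53 ± 0.04 and -1.56 ± 0.04 for *ITGA4*. The adjusted p-values of these differences lay between 5.15e-18 and 2.04e-09.

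The ICAMs did not follow the integrin chains in these control samples. *ICAM3*, the ICAM restricted to leukocytes (chr19:10444452-10450337), was higher in REH than in 697 by 2.13 ± 0.17 (adjusted p = 1.42e-09) and than in RCH-ACV by 0.77 ± 0.13 on the log2 scale (adjusted p = 3.31e-05, edgeR's quasi-likelihood test). *ICAM1*, the ICAM that inflammatory signals induce (chr19:10381769-10397291), was higher in REH than in 697 by 2.16 ± 0.23 (adjusted p = 1.45e-07, same test), with control levels of 7.61 ± 0.551 CPM in REH, 1.67 ± 0.757 in 697 and 6.82 ± 0.869 in RCH-ACV. Between REH and RCH-ACV the *ICAM1* difference was 0.15 ± 0.16 (adjusted p = 0.405) and their samples overlapped. *ICAM2* was lower in REH than in 697 (log2 difference -0.53 ± 0.06) and higher than in RCH-ACV (0.27 ± 0.06). The lines 697 and RCH-ACV also differed from each other. 697 held more *ITGA6* (1.38 ± 0.09), *ICAM2* (0.79 ± 0.06) and *ITGA5* (0.72 ± 0.05) than RCH-ACV, and less *ICAM1* (-2.01 ± 0.25), *ICAM3* (-1.36 ± 0.19), *ITGB7* (-1.27 ± 0.10), *ITGA4* (-1.03 ± 0.04) and *ITGB1* (-0.17 ± 0.05, adjusted p = 0.00491, edgeR's quasi-likelihood test). For *ITGB2* the difference was 0.06 ± 0.10 (adjusted p = 0.604), and the samples of these lines overlapped. Scaling by library size alone moved the median log2 difference of all genes between REH and 697 from 0.019 to 0.153. That is small beside the largest member differences but not beside the smallest, such as *ITGA4* (-0.40 in place of -0.53). All 9 members tested were still called.

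*ITGAL*, the αL chain of LFA-1 (chr16:30483979-30534888), was near or under the counting floor in 2 of the lines. In 697 it had 0 counts in all 6 samples, which allows a level of up to 0.319 to 0.426 CPM in a sample. In REH it had 3, 4 and 1 counts in the control samples and 2, 4 and 3 with *SOX11* siRNA. In RCH-ACV the 3 control samples together held 23 counts, at least 6.84-fold more than 697 could hold unseen (3 counts over the group). The other known α partners of β2 had few counts as well. *ITGAD* and *ITGAX* had 0 to 2 counts in each of the 18 samples, and *ITGAM* had at most 3 counts in each sample of 697 and RCH-ACV and 5 to 17 in REH, a level of 1.07 ± 0.239 CPM in its controls, above the 0.242 ± 0.0987 CPM of *ITGAL* there. *ITGB2* itself stood at 5.79 ± 1.31 CPM in the REH controls, 23.4 ± 1.12 in 697 and 22.3 ± 0.354 in RCH-ACV.

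In the comparison of *SOX11* siRNA with control siRNA, *ITGB2* was the member whose samples stood higher without overlap in all 3 lines. As in any bulk measurement, more cells with the transcript and more transcript in each cell cannot be told apart. *ITGB2*, at chr21:46305868-46351904 on the minus strand, encodes the β2 chain shared by LFA-1 and the myeloid integrins. In RCH-ACV the control samples held 22.7, 21.9 and 22.3 CPM and the *SOX11* siRNA samples 38.9, 40.4 and 32.5 CPM. In 697 the controls held 23.5, 24.5 and 22.3 CPM and the siRNA samples 30.8, 31.8 and 29.9 CPM. In REH the controls held 4.27, 6.48 and 6.60 CPM and the siRNA samples 7.87, 9.87 and 8.80 CPM. Each sample with *SOX11* siRNA was above every control of its line, and REH stayed lowest throughout. The log2 fold change was 0.75 ± 0.09 in RCH-ACV (adjusted p = 1.03e-04), 0.61 ± 0.16 in REH (adjusted p = 0.0264) and 0.40 ± 0.09 in 697 (adjusted p = 0.110, edgeR's quasi-likelihood test), so the call was made in RCH-ACV and REH and missed in 697. Over the 18 samples with cell line as a covariate the common log2 fold change was 0.59 ± 0.07 (adjusted p = 1.55e-06), and a difference between lines was not called (adjusted p = 0.495). The REH call was lost without 1 library: the adjusted p was 0.145 without control replicate 1, 0.114 without *SOX11* siRNA replicate 2 and 0.0663 without replicate 3. It was also lost with DESeq2 (adjusted p = 0.106) and in 1 fit over the 18 samples (0.0516), in which the 697 call was made (0.0444). The antisense transcript *ITGB2-AS1* overlaps the gene and held 0% to 4.00% of its counts.

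In all, 3 of the 9 members tested were called in REH, *ITGA4*, *ITGB1* and *ITGB2*, all higher with *SOX11* siRNA, against 4.65% of all 12787 genes tested in that line (2.64% higher). In RCH-ACV 4 of 10 were called, *ITGB2*, *ICAM3* and *ICAM2* higher and *ITGB1* lower, against 7.64% of 12963 genes (3.68% higher and 3.97% lower). In 697 0 of 9 were called by edgeR's quasi-likelihood test or by DESeq2, against 0.559% of 12169 genes, and 1 member, *ITGB2*, had an unadjusted p under 0.05 by either tool. The median log2 fold change of the members tested was 0.11 in REH, 0.001 in 697 and 0.12 in RCH-ACV, beside -0.002, -0.003 and 0.01 for all genes. The groups did not overlap for 5 of the 10 members in REH, 1 in 697 and 6 in RCH-ACV, beside 21.4%, 13.1% and 25.9% of all genes tested. The members were chosen with earlier results of these data known, so these shares do not test the set. The called members changed between 0.862-fold and 1.84-fold. Without *SOX11* siRNA replicate 3 of RCH-ACV, 6 members were called in that line, *ITGAL* and *ITGB7* being added to the 4, where 2518 of 13088 genes were called. Without either 697 library that stood apart, 0 members were called in 697, and the log2 fold change of *ITGB2* was 0.42 ± 0.10 and 0.39 ± 0.10 (adjusted p = 0.161 and 0.157, edgeR's quasi-likelihood test).

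**Figure D2:**
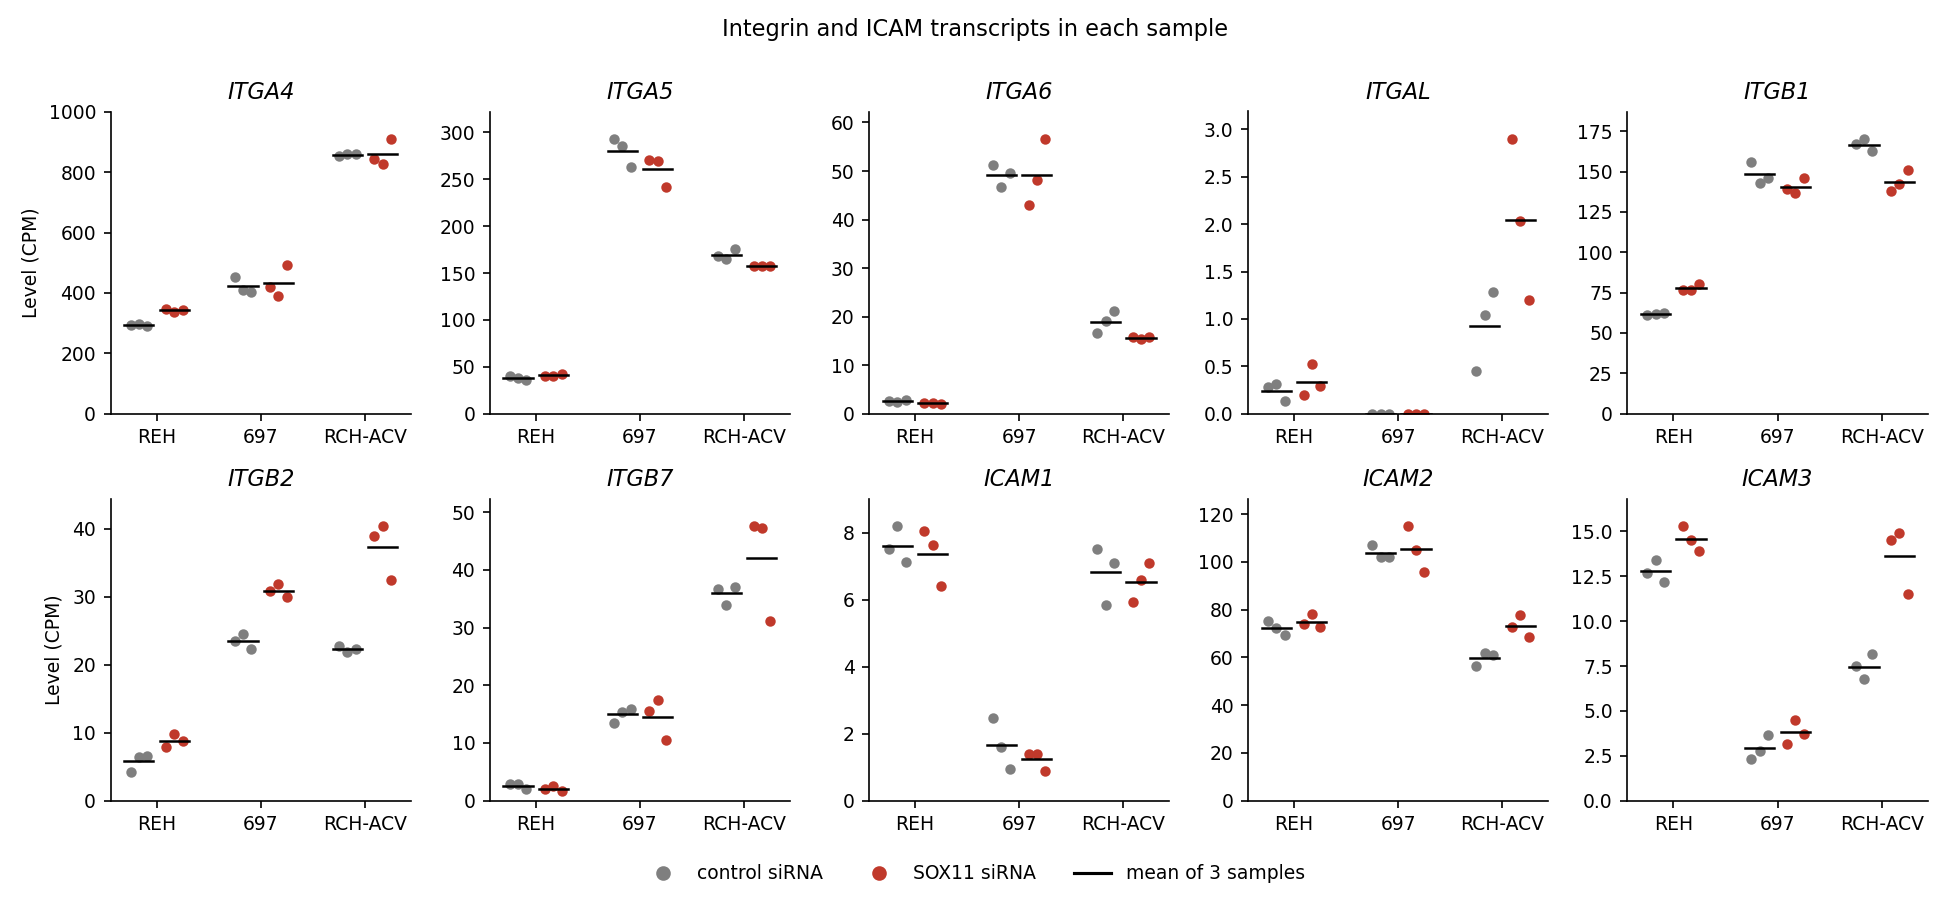
Level of each of the 10 genes in CPM (linear axes from 0, a separate scale for each gene) in the 18 samples, as grey points for control siRNA and red points for *SOX11* siRNA, with the mean of 3 samples as a line. *ITGB2* stands higher with *SOX11* siRNA in every line, and *ITGB1* higher in REH and lower in RCH-ACV.

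*ITGB1*, the β1 chain that partners α4, α5 and α6 (chr10:33176201-33294720), moved in opposite directions in 2 lines. In REH the control samples held 61.4, 61.6 and 62.2 CPM and the *SOX11* siRNA samples 76.8, 76.5 and 80.4 CPM. In RCH-ACV the controls held 167, 170.2 and 163 CPM and the siRNA samples 138, 142 and 151 CPM. In 697 the controls held 156, 143 and 146 CPM and the siRNA samples 139, 137 and 146 CPM. The groups were apart in REH and RCH-ACV and overlapped in 697. *ITGB1* rose in REH by 0.34 ± 0.05 (adjusted p = 1.48e-04), fell in RCH-ACV by 0.21 ± 0.05 (adjusted p = 0.00948) and stood at -0.08 ± 0.05 in 697 (adjusted p = 0.801, edgeR's quasi-likelihood test). The effect of the siRNA differed between the lines (adjusted p = 2.70e-04 for the interaction, same test), and *ITGB1* was the only 1 of the 10 members so called, against 0.727% of 14026 genes. It ranked 10 by p in that test. The RCH-ACV call was not made without either *SOX11* siRNA replicate 1 or 2 or control replicate 1 or 2. In those fits the adjusted p lay between 0.0567 and 0.0676 (same test). Over all 6 fits that left out 1 sample of that line, the log2 fold change stayed between -0.25 and -0.19. The common log2 fold change over the lines was -0.01. A non-coding gene on the other strand, *ITGB1-DT*, overlaps 47356 bases of the *ITGB1* gene, and its part in these counts was not tested.

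*ITGB7*, the third β chain, was not called in any line. In RCH-ACV the controls held 36.7, 33.9 and 37.1 CPM and the *SOX11* siRNA samples 47.6, 47.2 and 31.2 CPM. Replicates 1 and 2 with the siRNA were above all controls and replicate 3, the library that stood apart, was below them. The log2 fold change was 0.24 ± 0.12 (adjusted p = 0.247) with that library and 0.40 ± 0.07 without it (adjusted p = 1.17e-04, edgeR's quasi-likelihood test). In 697 replicate 3 with the siRNA was likewise the lowest, at 10.5 CPM beside 15.6 and 17.5 CPM. In REH *ITGB7* stood between 1.72 and 2.85 CPM over both groups, which overlapped. The *ITGB7* gene overlaps the 3′ end of *ZNF740* on the other strand. In a sample *ZNF740* held 152% to 5460% as many counts as *ITGB7*. The part of its reads in the *ITGB7* levels and differences between lines was not tested.

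Of the α chains only *ITGA4* was called, and only in REH. *ITGA4* (chr2:182321929-182403667) held 293, 296 and 291 CPM in the REH controls and 347, 337 and 342 CPM with *SOX11* siRNA, a narrow spread with no overlap. The log2 fold change was 0.23 ± 0.03 (adjusted p = 1.37e-04, edgeR's quasi-likelihood test), and the call was lost when the line was read from 1 fit over the 18 samples (0.22, adjusted p = 0.0575). In 697 it was 0.04 ± 0.07 (adjusted p = 0.967) and in RCH-ACV 0.003 ± 0.04 (adjusted p = 0.970), although RCH-ACV carried the most *ITGA4*, 855, 859 and 861 CPM in its controls. A difference of the effect between lines was not called (adjusted p = 0.427, same test). In REH *ITGA4* and *ITGB1*, the chains of α4β1, thus both rose in the fit of that line, while in RCH-ACV *ITGB1* fell and *ITGA4* did not pass. Reads of *CERKL*, which overlaps the end of *ITGA4* on the other strand, came to 17.1% to 19.8% of the *ITGA4* count in every sample. The strand setting of the counting was not given in the sources used here, so the part of either gene in these reads cannot be told apart.

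*ITGA5* and *ITGA6* were called in no line. In RCH-ACV *ITGA5* stood at 165 to 176 CPM in the controls and at 157 to 158 CPM with *SOX11* siRNA, and *ITGA6* at 16.6 to 21.1 CPM and 15.3 to 15.8 CPM, in each case without overlap. Their log2 fold changes there were -0.10 ± 0.04 (adjusted p = 0.172) and -0.28 ± 0.10 (adjusted p = 0.111, edgeR's quasi-likelihood test). In REH *ITGA6* also did not overlap, at 2.34 to 2.85 CPM in the controls and 2.01 to 2.21 CPM with the siRNA, a log2 fold change of -0.27 ± 0.23 (adjusted p = 0.630). *ITGAL* could be tested in RCH-ACV alone, where the controls held 4, 8 and 11 counts and the siRNA samples 23, 34 and 11 counts. Replicates 1 and 2 with the siRNA were above the controls in CPM and replicate 3 among them. The log2 fold change was 1.12 ± 0.38 (adjusted p = 0.0852), and 1.32 ± 0.35 without the library that stood apart (adjusted p = 0.00758, same test). In RCH-ACV both chains of LFA-1 therefore had higher means with the siRNA, of which *ITGB2* passed the test.

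**Figure D3:**
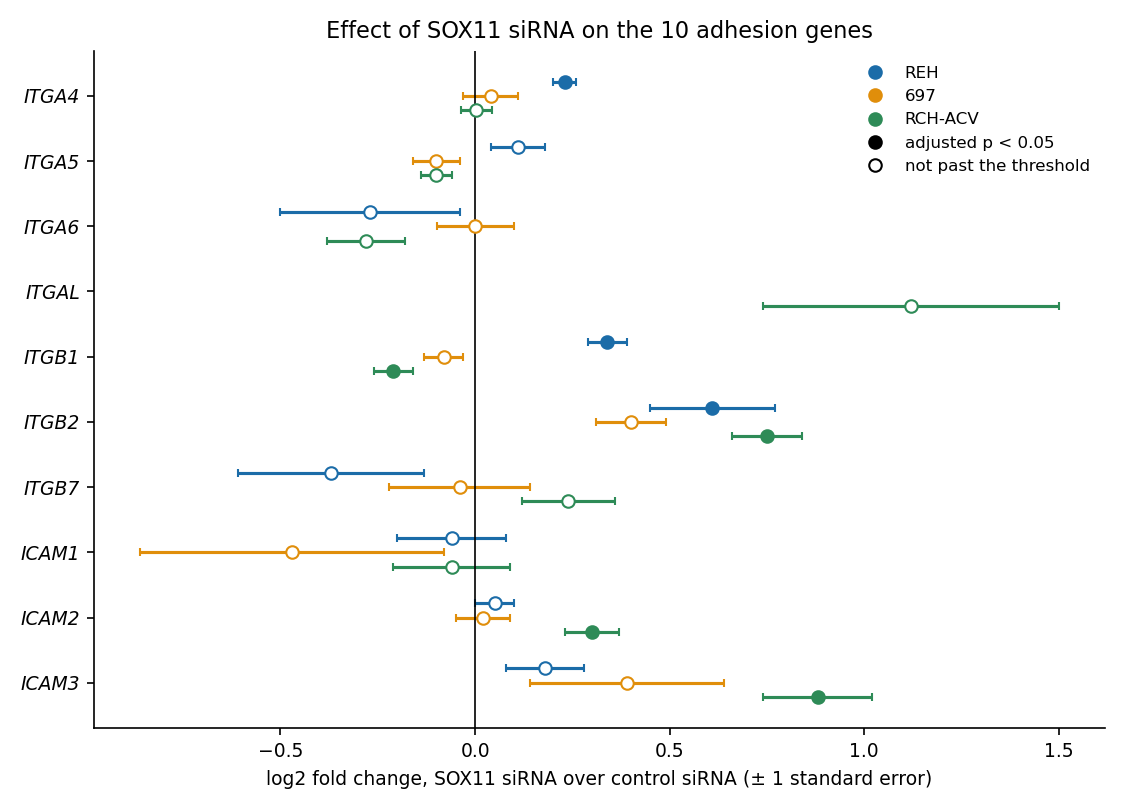
Log2 fold change of the 10 genes with *SOX11* siRNA over control siRNA in each line, with bars of 1 standard error from edgeR; filled points have an adjusted p under 0.05. *ITGB2* lies to the right of 0 in all 3 lines, *ITGB1* on opposite sides in REH and RCH-ACV, and *ITGAL* was tested in RCH-ACV only.

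Among the ligands, *ICAM3* and *ICAM2* rose in RCH-ACV. *ICAM3* held 7.51, 6.75 and 8.15 CPM in the RCH-ACV controls and 14.5, 14.9 and 11.5 CPM with *SOX11* siRNA. In REH it held 12.7, 13.4 and 12.2 CPM and then 15.3, 14.5 and 13.9 CPM, and in 697 2.33, 2.79 and 3.65 CPM and then 3.18, 4.52 and 3.70 CPM. The groups were apart in RCH-ACV and REH and overlapped in 697. The log2 fold change was 0.88 ± 0.14 in RCH-ACV (adjusted p = 8.34e-04), 0.18 ± 0.10 in REH (adjusted p = 0.390) and 0.39 ± 0.25 in 697 (adjusted p = 0.794, edgeR's quasi-likelihood test). Over the 3 lines it was 0.47 ± 0.10 (adjusted p = 0.00252), and *ICAM3* and *ITGB2* were the 2 of 10 members called for a common effect, both higher, against 9.02% of 14026 genes (3.74% higher). A difference between lines was not called for *ICAM3* (adjusted p = 0.124), but was without *SOX11* siRNA replicate 3 of RCH-ACV (adjusted p = 0.0264). A non-coding gene on the other strand overlaps 2473 bases of the *ICAM3* gene, and its part in these counts was not tested.

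*ICAM2*, at chr17:62079954-62097994, held 56.3, 61.8 and 61.1 CPM in the RCH-ACV controls and 72.7, 77.9 and 68.4 CPM with *SOX11* siRNA, without overlap. It rose by 0.30 ± 0.07 on the log2 scale (adjusted p = 0.00937, edgeR's quasi-likelihood test), a call not made without *SOX11* siRNA replicate 2 (adjusted p = 0.0887) or control replicate 1 (adjusted p = 0.0753). In REH the log2 fold change was 0.05 ± 0.05 and in 697 0.02 ± 0.07, with overlapping groups. Reads of *PRR29*, which overlaps the end of *ICAM2* on the other strand, bear on this value as on its level. *ICAM1* was called in no line. It stood at 6.41 to 8.20 CPM in all REH samples, at 5.84 to 7.51 CPM in all RCH-ACV samples and at 0.897 to 2.46 CPM in all 697 samples, with log2 fold changes of -0.06 ± 0.14, -0.06 ± 0.15 and -0.47 ± 0.39 and overlapping groups.

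The other genes of integrin adhesion were read from 5 lists of 105 genes in all. Of the 67 tested in REH, 10 were called (8 higher and 2 lower). In 697 it was 1 of 61 (lower) and in RCH-ACV 14 of 73 (8 higher and 6 lower). These are 14.9%, 1.64% and 19.2%, beside 4.65%, 0.559% and 7.64% of all genes tested. The lists too were chosen with earlier results of these data known, so the shares are a description and do not test the lists. The other integrin subunits had 0 of 4 called in REH and in 697, where 1 and 0 had an unadjusted p under 0.05 and DESeq2 called 0. In RCH-ACV 1 of 9 was called, *ITGA9*, an α chain that also pairs with β1 and fell by 0.84 ± 0.13 from 11.6 to 6.47 CPM (adjusted p = 5.63e-04, edgeR's quasi-likelihood test). Of the other integrin ligands 3 of 9 were called in RCH-ACV, all lower: the laminin chains *LAMB1* (by 0.99 ± 0.16) and *LAMA3* (by 0.63 ± 0.16) and the junctional molecule *JAM3* (by 0.32 ± 0.08). With DESeq2 *LAMA3* and *JAM3* were not called there, and *JAM3* was not called with same-numbered samples as a block. By edgeR and by DESeq2, 0 of 9 of these ligands were called in REH and 0 of 5 in 697, with 0 and 1 at an unadjusted p under 0.05 by edgeR.

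The list of integrin activators and adaptors had 34 genes tested in each line, of which 4 were called in REH, 4 in RCH-ACV and 1 in 697. *NEDD9*, a docking protein of integrin signaling, rose in REH by 0.71 ± 0.15 (from 4.77 to 7.96 CPM) and in RCH-ACV by 0.69 ± 0.16 (from 4.16 to 6.66 CPM). *TNS1*, which links β chains to actin, fell in REH by 0.31 ± 0.04 and in 697 by 0.96 ± 0.18. *RASSF5* (RAPL), which carries the RAP1 signal to LFA-1, fell in RCH-ACV by 0.26 ± 0.04, and its siRNA effect differed between lines (adjusted p = 0.0255, edgeR's quasi-likelihood test). *RASSF5* was also called for the common effect over the lines, and in 697 when that line was read from 1 fit over the 18 samples. Vinculin (*VCL*) fell in RCH-ACV by 0.24 ± 0.06. Kindlin-3 (*FERMT3*), which activates integrins from inside the blood cell, rose there by 0.18 ± 0.05 (adjusted p = 0.0481, edgeR's quasi-likelihood test). With DESeq2 *NEDD9* and *FERMT3* were not called in RCH-ACV, and *FERMT3* was not called with same-numbered samples as a block. Of the fits that left out 1 library of that line, *VCL* was called only in that without *SOX11* siRNA replicate 3. In REH *RASGRP2*, an exchange factor for RAP1, rose by 0.18 ± 0.04 and *APBB1IP* (RIAM) by 0.13 ± 0.03. The linkers of ICAMs to actin had 1 of 5 called in REH, ezrin (*EZR*, higher by 0.19 ± 0.03), and 1 of 5 in RCH-ACV, *ACTN4* (higher by 0.17 ± 0.05). The *ACTN4* call (adjusted p = 0.0401, edgeR's quasi-likelihood test) was not made with DESeq2 or with same-numbered samples as a block. In 697 0 of 6 linkers were called by edgeR or DESeq2, and 0 had an unadjusted p under 0.05. Of 34 adaptors tested, *TNS1* was the only gene called in 697, and that call was made without 1 of the 6 libraries (control replicate 3) and in no other such fit.

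Other leukocyte adhesion receptors had 5 of 15 called in REH and 5 of 16 in RCH-ACV. In 697 0 of 12 were called by edgeR or DESeq2, although 5 had an unadjusted p under 0.05 by edgeR. The tetraspanins *CD82* and *CD81* rose in REH by 0.82 ± 0.19 and 0.19 ± 0.04, and *CD81* rose in RCH-ACV by 0.34 ± 0.06. *CEACAM1* fell in REH by 0.87 ± 0.18. In RCH-ACV *PECAM1* rose by 0.88 ± 0.15 from 4.51 to 8.20 CPM, *CD48* by 0.40 ± 0.06 and *SPN* (CD43) by 0.24 ± 0.04. Other called genes, *SPN* in REH and *CD44* in RCH-ACV, lay beyond the 4 genes of a list that were to be named and were added after their values were seen. Without *SOX11* siRNA replicate 3 the count of list genes called in RCH-ACV was 28, and without other single libraries of that line it was 8 to 11.

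**Figure D4:**
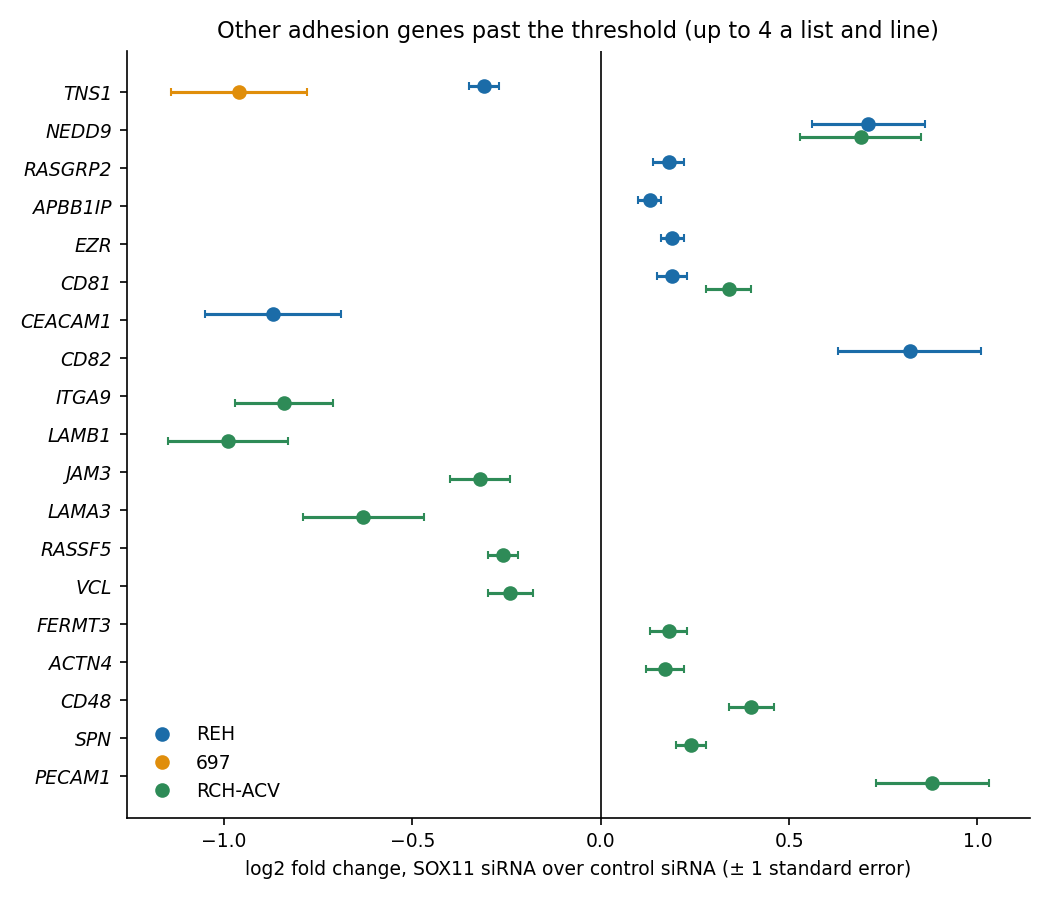
Log2 fold change with *SOX11* siRNA over control siRNA, with bars of 1 standard error, of the genes on the 5 adhesion lists that passed an adjusted p of 0.05, at most 4 for each list and line, apart from 1 gene that is not shown. *NEDD9* and *CD81* rose in both REH and RCH-ACV, and *TNS1* fell in REH and 697.

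Between the control samples, lines also differed in which other chains they held. *ITGA8*, an α chain that pairs with β1, stood at 515 ± 38.7 CPM in 697 and 90.2 ± 3.23 in RCH-ACV, and between 0.156 and 0.517 CPM in REH. *ITGAV*, another partner of β1, was at 27.4 ± 2.70 CPM in 697, 36.3 ± 2.02 in RCH-ACV and 0 counts in the REH samples. Of the receptors outside the integrins, *CD44*, a hyaluronan receptor, stood at 366 ± 11.5 CPM in RCH-ACV, 0.596 ± 0.587 in 697 and 0 in REH. Inside the cell, the adaptor *FYB1* (ADAP), which links to LFA-1 activation, stood at 243 ± 2.38 CPM in REH and at 0.135 ± 0.0120 and 0.0821 ± 0.0714 CPM in 697 and RCH-ACV.

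For the 9 members whose 6 group means of log2 CPM spanned more than 1, the gene of closest pattern was found by the root mean square difference over the 6 means, after each gene was centred on its own mean. It was *H6PD* for *ITGA5* (0.06), *TCP10L* for *ITGB1* (0.06), *C1orf216* for *ICAM1* (0.05), *RASIP1* for *ITGB7* (0.13), *TANC1* for *ITGA6* (0.14), *PECAM1* for *ITGB2* (0.19) and *HCG27* for *ICAM3* (0.20). For *ITGA4* it was *CERKL* (0.04), the gene that overlaps it. For *ITGAL* it was a transcript without a gene symbol (0.30). *ICAM2* varied least, with means spanning 0.81. The likeness is given as a description of these means.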

How the data were processed

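The study transfected 3 established BCP-ALL lines with *SOX11* or control siRNA (18 samples, which the study describes as independent biological replicates). The authors prepared stranded mRNA libraries, aligned the reads to hg19 with STAR 2.5.3a after quality checks with FastQC 0.10.1, and used HOMER for read counts on RefSeq transcripts. The strand setting of the counting is not given in the sources used here. Non-coding genes on the other strand also overlap *ITGA5*, *ITGA6*, *ITGAL*, *ITGB1*, *ICAM1* and *ICAM3*, and their part in the counts was not tested. The deposited values are raw read counts, without normalization, in 1 table for each line. Of 50678 transcripts, 98.0% (99.04% of counts) matched a RefSeq gene symbol, and each of 26941 genes was read from the 1 transcript whose counts summed highest over all samples. Overlapping transcripts share reads, so isoforms were not separated.

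CPM values used TMM-scaled library sizes over the 18 samples, and levels per kb the length of the GENCODE canonical transcript. Each line was tested with edgeR 4.0.16 in R 4.3.3 (filterByExpr, TMM, quasi-likelihood F-test, two-sided), with the p-values adjusted by Benjamini-Hochberg over all genes and called under 0.05. The 9 controls were fitted together for the differences between lines, and all 18 samples for the common effect and the interaction, with a term for cell line. Standard errors were computed from the F statistic. The fits were also run on simulated counts with known changes, and the outcome is not given here. No simulated library was made to stand apart, so these runs do not cover the libraries that did. The p-values set each difference against the spread between replicate samples of these lines, and do not extend to other lines or to patients.

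The members and gene lists were chosen with earlier results of these data known. The genes named were all members, *SOX11*, up to 4 called genes of smallest adjusted p for each list and line (1 of which is not reported here), the list genes of largest difference between controls (only some of which are described), and the gene of closest pattern to each member. The alternatives tried were a replicate block, DESeq2 1.42.0, edgeR's legacy method, library size alone, RLE size factors, no filter on low counts or one of CPM above 1 in 3 samples, the main transcript chosen within the samples tested, all transcripts kept apart, an adjusted p under 0.01, 1 fit over the 18 samples, and leaving out each sample. Python 3.11.15 with pandas 2.3.3 and matplotlib 3.10.9 drew the figures.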

Additional observations from a re-analysis of the deposited data

Results flagged for a closer look

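The effect of *SOX11* siRNA on *ITGB1* differed between the lines by a test of the difference itself (adjusted p = 2.70e-04 for the interaction of siRNA and cell line, edgeR's quasi-likelihood test over the 18 samples). Its log2 fold change was 0.34 ± 0.05 in REH, -0.21 ± 0.05 in RCH-ACV and -0.08 ± 0.05 in 697. In REH 3 of 3 samples with the siRNA were above all controls, and in RCH-ACV 3 of 3 were below all controls. The interaction was called in each of the fits that left out 1 of the 18 samples.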

How the results depend on the processing

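The counts of members called held within 1.5 times under most alternatives. With 1 fit over the 18 samples, 1 member was called in REH (*ITGB1*, with *ITGA4* at an adjusted p of 0.0575 and *ITGB2* at 0.0516) and 1 in 697 (*ITGB2*, 0.0444), and 6 list genes in REH and 4 in 697. Other counts of list genes were 0 in 697 at an adjusted p under 0.01, with library size alone and with the replicate block, 2 in 697 with DESeq2 and with all transcripts kept apart, and 7 and 9 in RCH-ACV at an adjusted p under 0.01 and with DESeq2. Leaving out 1 sample gave 2 to 6 members called in RCH-ACV, 1 to 2 for the interaction (*ITGA4* being added without *SOX11* siRNA replicate 3 of 697, adjusted p = 0.0499, and *ICAM3* without that of RCH-ACV) and 2 to 4 for the common effect (*ITGA6*, 0.0437, and *ICAM2*, 0.0283, being added without replicate 3 of 697 with the siRNA). It gave 0 to 1 list genes in 697 and 8 to 28 in RCH-ACV. The common effect of *ITGAL* was called without *SOX11* siRNA replicate 3 of RCH-ACV (0.0228, beside 0.0594 with all samples).

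Signs turned only for differences that were called neither before nor after: *ITGA6* in 697 (-0.01 with the replicate block), the common effect of *ITGB1* (0.0005 with DESeq2) and *ITGB2* between 697 and RCH-ACV (-0.15 with 18 samples and siRNA as a covariate). Leaving out 1 sample spanned, on the log2 scale, -0.06 to 0.11 for *ITGA4* in 697, -0.04 to 0.03 for *ITGA4* in RCH-ACV, -0.11 to 0.09 for *ITGA6* in 697, -0.20 to 0.16 for *ITGB7* in 697, -0.15 to 0.05 for *ICAM1* in REH, -0.15 to 0.02 for *ICAM1* in RCH-ACV, -0.05 to 0.09 for *ICAM2* in 697 and -0.04 to 0.01 for the common effect of *ITGB1*. In the fit with siRNA as a covariate *ITGB1* did not pass between 697 and RCH-ACV (-0.10, adjusted p = 0.150). The cause of these changes was not tested.

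Over all genes, DESeq2 called 315 genes in REH, 85 in 697 and 577 in RCH-ACV, beside 595, 68 and 991. All transcripts kept apart gave 1490, 217 and 2615, and an adjusted p under 0.01 gave 275, 27 and 407. Leaving out 1 sample gave 299 to 521, 25 to 71 and 386 to 2518. With the replicate block 479, 29 and 690 genes were called. The numbers share no stated origin, and deviations of same-numbered samples correlated between -0.267 and 0.265, so the block was an alternative only. It changed no call of a member (adjusted p = 0.0132 for *ITGB2* in REH and 0.0111 for the *ITGB1* interaction). Depth limits *ITGAL* in every line, *ITGA6* and *ITGB7* in REH and *ICAM1* in 697, which rested on 36 counts or fewer in a sample.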
